A study of Mus musculus with 2 samples.

Results

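Chromatin accessibility was examined at 10 genes in hematopoietic stem cells (HSCs) of young and aged mice. They encode the CNC, Bach and small Maf transcription factors and Keap1, the inhibitor of the CNC factor Nrf2. The 10 genes are Nfe2, Nfe2l1, Nfe2l2, Nfe2l3, Bach1, Bach2, Maff, Mafg, Mafk and Keap1, out of 21755 protein-coding genes on the autosomes and X chromosome, and they were chosen by family with a rule that uses no measured value, although earlier results of these data were known. Single-cell ATAC-seq, in which a transposase cuts open chromatin in single nuclei, was available for 2 libraries of C57BL/6 mice, 1 of young HSCs aged 10 weeks and 1 of aged HSCs aged 20 months. No treatment or genotype other than the strain was given, and the study's methods state that the mice were female. The cells were sorted from bone marrow as positive for Sca-1, c-kit and CD150 and negative for lineage markers, IL-7 (the receptor IL-7Rα in the methods), CD34, CD48 and Flt3, and the number of mice behind each single-cell library was not given in the sources used here. With 1 library per age there was no replicate, no test between the ages was made, and every 95% interval below covers counting error only.

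CNC proteins are activators with a basic leucine zipper that bind DNA as pairs with a small Maf protein, which itself carries no activation domain. They recognise the Maf and antioxidant response elements, and the repressors Bach1 and Bach2 compete for the same sites and the same small Maf partners. The p45 subunit of NF-E2, encoded by Nfe2, is known for platelet formation in megakaryocytes, Nrf2 (Nfe2l2) for the response to oxidants, and Nrf1 (Nfe2l1) for proteasome genes, while Keap1 holds Nrf2 at a low level by feeding it to a ubiquitin ligase.

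The young library held 53786133 unique fragments and the aged library 48333115. Of the 5028 young and 3694 aged barcodes called as cells by the authors, 4887 and 3405 had 3000 to 20000 in-peak fragments and were used, and 26 barcodes were cells in both libraries. Fragments shorter than 150 bp made up 60.3% of the young and 55.6% of the aged fragments. The HSC label was checked on 15 marker genes, of which 14 had at least 50 promoter fragments. Kit had 51.7 and 48.4 promoter fragments per 1000000 in-peak fragments (FPM) in the young and aged library, Hlf 35.9 and 34.0, and Procr 14.7 and 17.0, whereas the annotated start of Mecom was nearly closed, at 0.524 and 0.541 FPM. Of the genes of sort markers, Slamf1 (CD150) had 7.16 and 9.69 FPM and Ly6a (Sca-1) 3.03 and 2.86, both below Cd34 with 16.3 and 14.1, whose protein the sort selected against. Summed over 10 genes a list, promoters of mature lineages had 71.1 and 68.3 FPM for B cells, 37.9 and 42.2 for T cells, 97.5 and 90.0 for erythroid cells, 151 and 134 for megakaryocytes and 36.2 and 36.3 for mature myeloid cells. The 10 closed reference genes of other tissues summed to 13.1 and 14.0 FPM, of which Gfap alone gave 9.75 and 9.5. None of the lineage markers was at 0 in either library, and the defining genes Cd3e (0.844 and 0.579 FPM), Hba-a1 (0.815 and 0.541) and S100a8 (0.582 and 0.695) were low, while Pf4 of megakaryocytes stood at 41.9 and 39.5. The part of other cell types in the results was not tested directly, and the counts obtained without the 5% of cells highest in these markers are given beside them.

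The promoters of all 10 genes were open in both libraries and differed little with age. A promoter was the annotated 5' end of the gene with 1 kb on either side, so that all windows had the same length, and each fragment with an end inside the window was counted once. None of the 10 promoters passed the limit of 0.32 in log2(aged / young), in either direction, against 9.56% of the 15978 tested protein-coding promoters that were higher and 3.93% that were lower. These shares include promoters with as few as 50 fragments, whereas the least covered of the 10 had 588 and 495. Promoters of like depth were not compared. The median log2(aged / young) of the 10 was -0.0063, with a range from -0.13 to 0.16, and that of all tested promoters was -0.051, with a range from -0.28 to 0.51 between the 5th and 95th percentiles. Of the 10 ratios, 5 were below 0, as were 63.8% of all promoters.

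**Figure D1:**
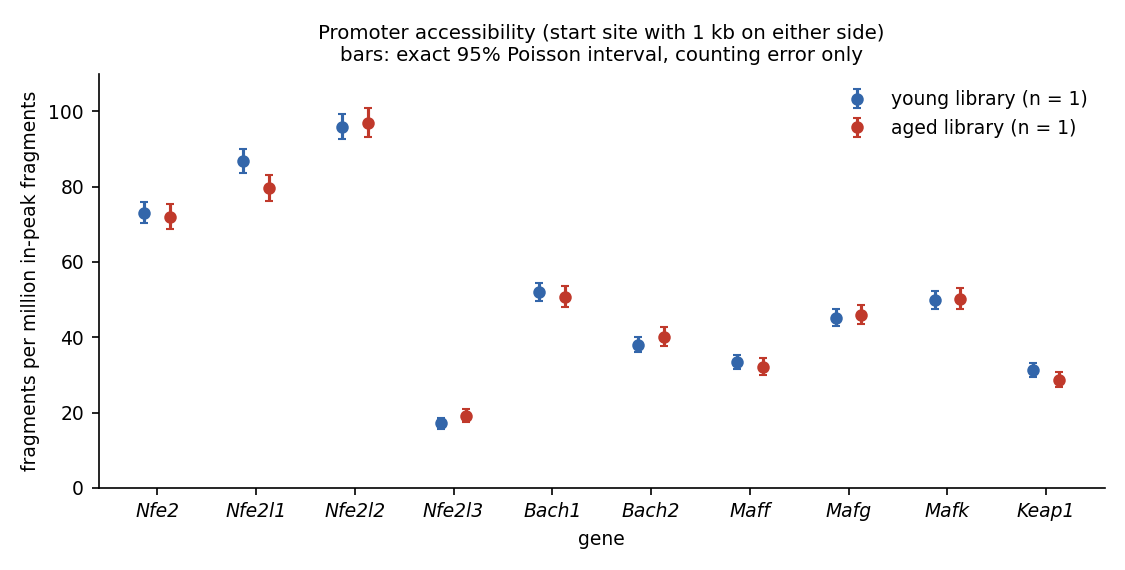
Promoter accessibility of the 10 genes in FPM, with 1 point for the young library (blue) and 1 for the aged library (red) and bars for the exact 95% Poisson interval. Nfe2l2 was highest at 95.8 and 96.9 FPM and Nfe2l3 lowest at 17.1 and 19.1, and the points of both ages lie close together for each gene.

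Among the activators, Nfe2l2, which encodes Nrf2 (chr2:75675513-75704641, minus strand, mm10), had the most accessible promoter, with 95.8 FPM in young and 96.9 FPM in aged HSCs (3294 and 2510 fragments). Its log2 ratio was 0.016 (95% interval -0.059 to 0.091), and 99.3% of all 21755 protein-coding promoters, tested or not, were lower in the young library. Nfe2l1, which encodes Nrf1 (chr11:96817414-96829968, minus strand), had 86.7 FPM in young and 79.5 FPM in aged HSCs, a log2 ratio of -0.12 (-0.21 to -0.043), and was the only one of the 10 promoters whose interval lay on one side of 0, as it did above 0 for 12.3% and below 0 for 22.6% of all tested promoters. After centring on the median of all promoters its ratio was -0.073 (-0.15 to 0.0083), and the intervals of Nfe2l3 (0.036 to 0.39) and Bach2 (0.010 to 0.25) lay above 0, against 16.5% of all promoters above and 10.6% below. Nfe2, the gene of the p45 subunit (chr15:103248212-103258403, minus strand), had 73.1 and 72.0 FPM and a ratio of -0.021 (-0.11 to 0.066). These activator genes ranked above the other members in both libraries, and their intervals did not overlap each other or those of the rest. Nfe2l3, a less studied relative (chr6:51432670-51458768, plus strand), was the least accessible of the 10, with 17.1 FPM in young and 19.1 FPM in aged HSCs. Its ratio of 0.16 (-0.016 to 0.33) was the highest of the 10, on 588 and 495 fragments, but its interval spanned 0.

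The genes of the repressors lay in the middle of the order. Bach1, whose protein is released from DNA by heme (chr16:87698945-87733346, plus strand), had 52.0 FPM in young and 50.7 FPM in aged HSCs, with a ratio of -0.036 (-0.14 to 0.067). Bach2, known for its role in B cells and lymphoid commitment (chr4:32238804-32586108, plus strand), had 38.0 and 40.1 FPM and a ratio of 0.078 (-0.041 to 0.20). The intervals of the repressors did not overlap each other in either library.

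The small Maf proteins pair with both the activators and the repressors. Mafk (chr5:139791513-139802653, plus strand) had 49.9 FPM in young and 50.2 FPM in aged HSCs, with a ratio of 0.0080 (-0.097 to 0.11). Mafg (chr11:120625117-120633600, minus strand) had 45.1 and 46.0 FPM and a ratio of 0.028 (-0.083 to 0.14), and Maff (chr15:79346621-79359076, plus strand) had 33.4 and 32.2 FPM and a ratio of -0.052 (-0.18 to 0.077). The levels of Maff lay below the intervals of the other small Maf genes in both libraries, and its ratio turned to 0.15 with 500 bp on either side of the start. Keap1 (chr9:21229730-21239361, minus strand) had 31.3 FPM in young and 28.7 FPM in aged HSCs and the lowest ratio of the 10, -0.13 (-0.26 to 0.0089), an interval that just spanned 0. From high to low, the order was Nfe2l2, Nfe2l1, Nfe2, Bach1, Mafk, Mafg, Bach2, Maff, Keap1 and Nfe2l3 in both libraries. Neighbours whose intervals overlapped were Bach1 and Mafk and also Maff and Keap1 in both libraries, and Mafk and Mafg in the aged library.

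Over whole gene bodies the differences were also small. None of the 10 bodies was past the limit of 0.32, against 9.3% of 18444 tested bodies that were higher in the aged library and 3.18% that were lower. These shares too include bodies with as few as 50 fragments. The intervals of 3 bodies lay above 0 and those of 4 below 0, against 19.9% and 19.6% of all tested bodies. After centring on the median of all promoters 4 lay above 0, with Nfe2l2 added, and 2 below, without Nfe2 and Keap1, against 27.2% and 9.55% of all bodies. These counts depend on the centre, since the median of all tested bodies was -0.019 and that of promoters -0.051. The interval of the Nfe2l2 body (-0.020 to 0.099) holds -0.019, and that of Nfe2 lies below it. Bach2 was higher in aged HSCs, with 1.36 and 1.53 FPM per kb (16276 and 13750 fragments) and a log2 ratio of 0.16 (0.13 to 0.20). Nfe2l3 was higher, at 1.57 and 1.78 FPM per kb with a ratio of 0.18 (0.065 to 0.29), and Mafk was higher, at 7.11 and 7.60 FPM per kb with a ratio of 0.097 (0.015 to 0.18). Nfe2l1 was lower, at 5.10 and 4.56 FPM per kb with a ratio of -0.16 (-0.26 to -0.066), and Bach1 was lower, at 3.38 and 3.08 FPM per kb with a ratio of -0.14 (-0.21 to -0.065). Nfe2 at -0.13 (-0.22 to -0.035) and Keap1 at -0.11 (-0.22 to -0.0040) were lower as well. The bodies of Nfe2l2 at 0.039, Mafg at 0.0079 and Maff at -0.040 had intervals that spanned 0. The ratio of Bach2 moved outside its interval under other scales, from 0.13 with all fragments as the scale to 0.22 after centring on the median of all promoters, and was 0.11 with fragments shorter than 150 bp.

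**Figure D2:**
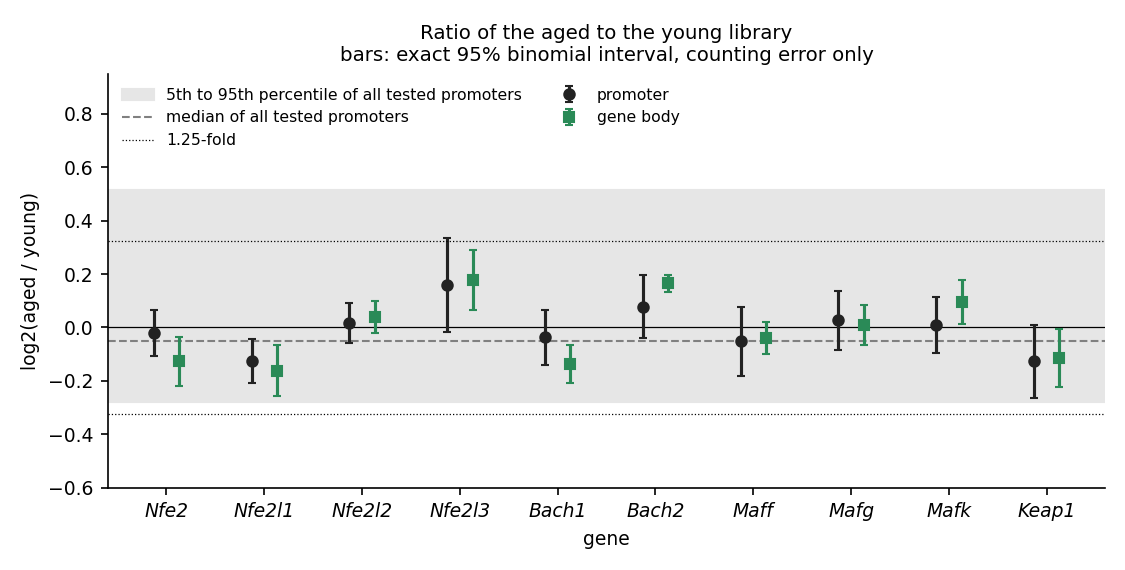
log2(aged / young) at the promoter (black circles) and over the gene body (green squares) of the 10 genes, with exact 95% binomial intervals, the 5th to 95th percentile of all tested promoters as a grey band, their median as a dashed line and the limit of 0.32 as dotted lines. All promoter and body ratios of the 10 genes lie inside the dotted lines, with Bach2, Nfe2l3 and Mafk bodies above 0 and those of Nfe2l1, Bach1, Nfe2 and Keap1 below 0.

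Alternative transcript starts were counted in the same way, with 1 kb on either side. The share of alternative starts past 0.32 over all genes was not counted. The second start of Mafk, 6001 bp downstream of the first, had 17.1 FPM in young and 23.6 FPM in aged HSCs (587 and 610 fragments). Its log2 ratio of 0.46 (0.30 to 0.63) was past 0.32 and stood apart from the 0.0080 at the gene's first start, with intervals that did not overlap. An intronic peak with 439 and 489 fragments lies wholly inside this window and inside the gene body. The start, the peak and the body thus share these fragments and are not separate differences. The second start of Mafg, at 2803 bp, had 19.9 and 22.5 FPM and a ratio of 0.18 (0.013 to 0.34). An inner start of Nfe2l1 at 5841 bp had 29.5 and 25.4 FPM and a ratio of -0.21 (-0.36 to -0.072), and one of Nfe2 at 2964 bp had 21.2 and 18.7 FPM and a ratio of -0.18 (-0.35 to -0.014). Their other inner starts had intervals that spanned 0. At Nfe2l1 (2013 bp) the ratio was 0.33, also past 0.32, on 36 and 34 fragments. At Nfe2 (4341, 5593 and 6716 bp) the ratios were -0.11, -0.17 and 0.12. At Maff the inner start, at 1443 bp, was the busier one, with 74.4 FPM in young against 69.2 FPM in aged HSCs and a ratio of -0.10 (-0.19 to -0.017), and its window overlaps that of the first start. The second start of Bach2, 178631 bp into the gene, was nearly closed, with 11 and 12 fragments.

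The genes with 50 kb on either side were then divided into 500-bp bins. Of 3012 bins, 749 had at least 50 fragments, and 15 of these (2.0%) were over 2-fold higher and 12 (1.60%) over 2-fold lower in the aged library. Among 271467 such bins near all protein-coding genes, 3.78% were higher and 1.1% lower. Without the 5% of cells highest in lineage markers, 15 of 731 bins were higher and 9 lower, against 3.77% and 1.10% of all such bins. By gene the counts were small. Bach2 had 8 higher bins (5.52%) and no lower bin among 145, and Mafk had 5 lower bins (7.58%) and no higher bin among 66. Nfe2l2 had 3 higher bins among 67 (4.48%) and Nfe2 had 2 among 87 (2.30%), with none lower. Nfe2l1 had 2 lower among 56 (3.57%), Bach1 2 among 62 (3.23%) and Keap1 1 among 59 (1.69%), with none higher. Maff among 67 (1.49%) and Nfe2l3 among 54 (1.85%) had 1 in each direction, and none of the 86 bins at Mafg was called. Adjoining bins are not separate differences, such as those 14763, 14263 and 13763 bp upstream of Mafk and 88446 and 88946 bp downstream of the Bach2 start. In bins that touched no peak, the log2 ratio over the 10 loci together was 0.094 (0.071 to 0.12), close to the 0.11 of all fragments outside peaks in the genome. It was 0.25 (0.20 to 0.29) at Bach2, 0.18 (0.11 to 0.26) at Nfe2l2, 0.12 (0.049 to 0.20) at Mafg, 0.086 (0.018 to 0.15) at Nfe2 and -0.092 (-0.17 to -0.018) at Mafk, and the intervals of the other loci spanned 0. The intervals of Bach2, Nfe2l3, Bach1 and Mafk did not hold the genome value, the first above it and the others below it. The genome value counts fragments with no end in any peak rather than bins, so the comparison is only approximate.

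**Figure D3:**
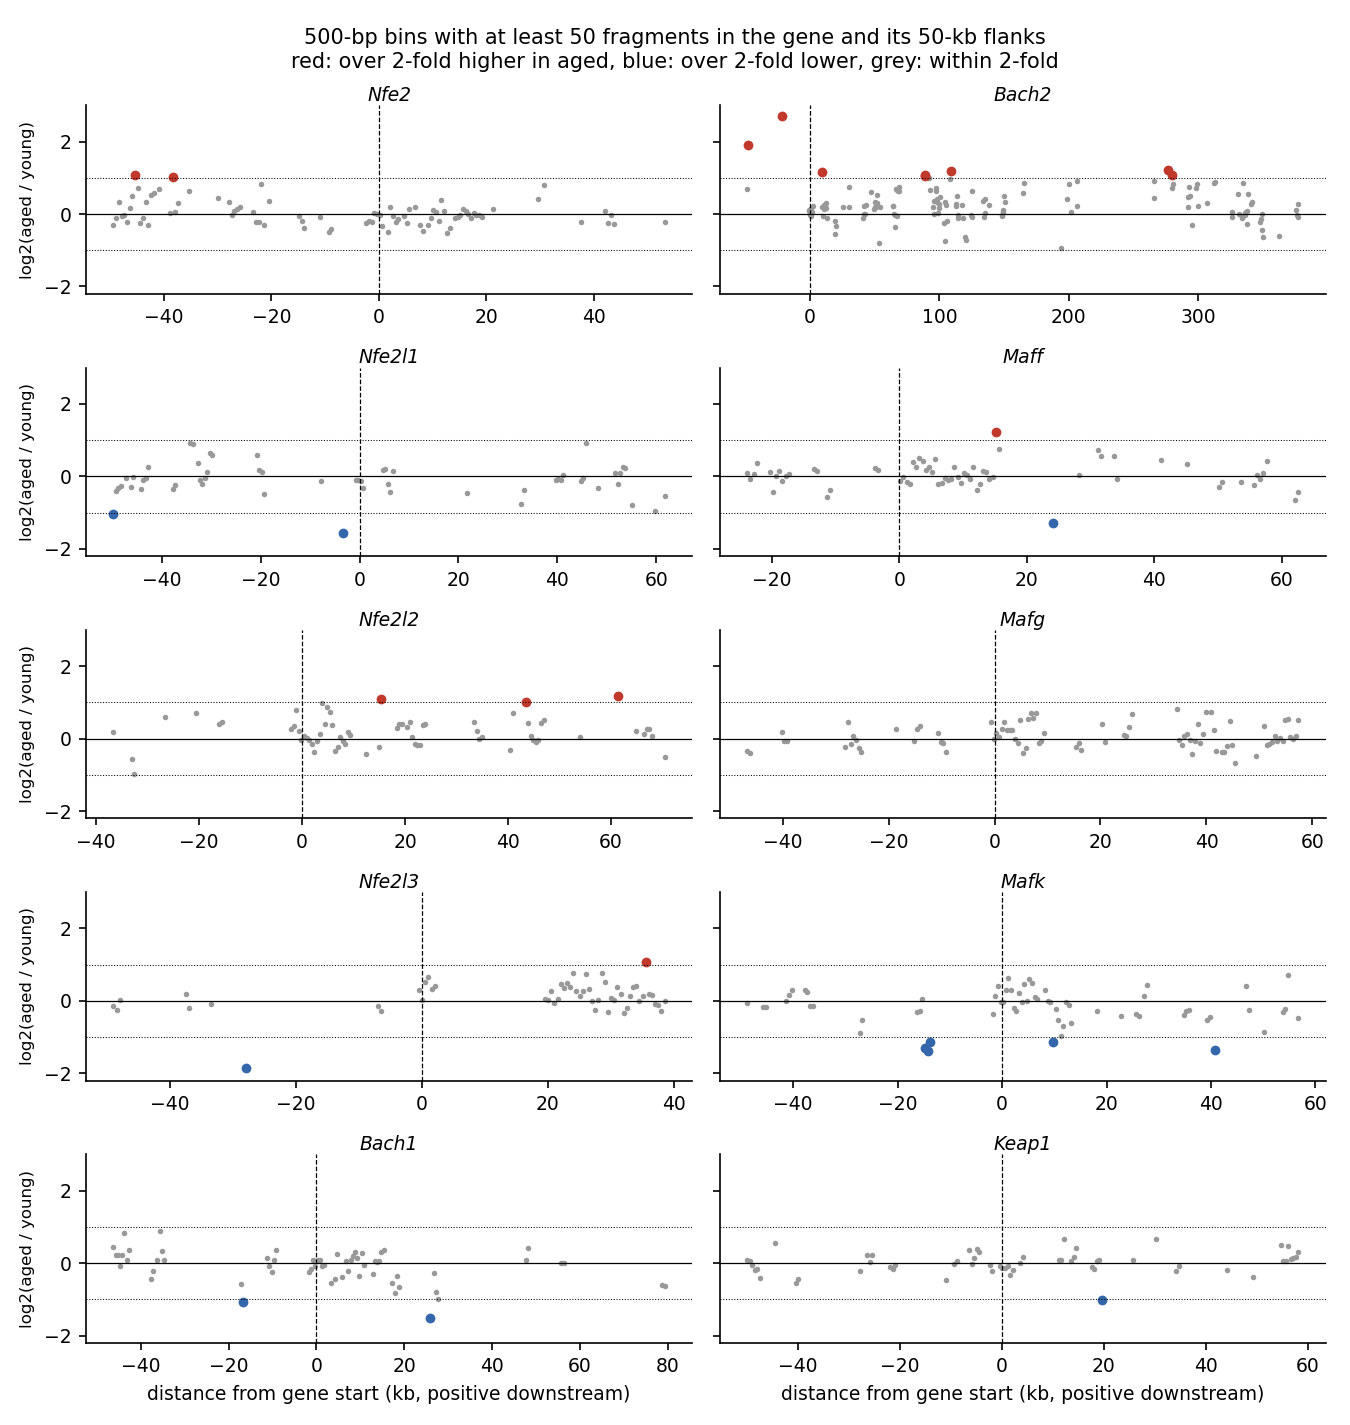
log2(aged / young) of each 500-bp bin with at least 50 fragments against its distance from the gene start in kb, with 1 panel per gene. Bins over 2-fold higher in the aged library are red, those over 2-fold lower are blue, and the 2 red points far above the rest are the upstream bins of Bach2, at 1.90 and 2.71.

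Peaks called from the cut sites of each library and merged gave 284 peaks at the 10 genes and their flanks, of which 207 had at least 100 fragments. Of these, 3 (1.45%) were over 2-fold higher in aged HSCs, 2 at Bach2 and 1 at Nfe2l2, and 1 (0.483%) was over 2-fold lower, at Mafk. Among 97257 tested peaks of the genome, 3.44% were higher and 0.841% lower. Without the 5% of cells highest in lineage markers, 2 peaks were higher and 1 lower. The 3 higher peaks then had ratios of 2.87 and 1.52 at Bach2 and 1.13 at Nfe2l2, and the lower one at Mafk had -1.41. All 3 were still past 2-fold, so the call that was lost fell under the minimum of 100 fragments.

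The largest difference at any of the 10 genes lay upstream of Bach2, where a peak 22147 bp before the gene start went from 34 fragments in the young to 179 in the aged library. The log2 ratio was 2.77 (2.27 to 3.38), and it stayed between 2.43 and 2.98 under the alternatives run on peaks. The peak is intergenic, was called in each library alone, and has the Bach2 start as its nearest protein-coding start. In cells thinned to 3000 in-peak fragments, 15 of 4782 young cells (0.314%) and 58 of 3267 aged cells (1.78%) had a fragment in it, and no thinned cell had more than 1. A second peak 48138 bp before the start, also intergenic, went from 51 to 122 fragments, a ratio of 1.65 (1.18 to 2.17), and was seen in 0.439% of young and 1.71% of aged thinned cells. Between these peaks and the promoter no other bin was called. Regions that the study chose on separate bulk samples as more open in aged HSCs lay in the upstream flanks of Bach2 and Bach1, and their fragments were counted in the single-cell libraries. The one at Bach2, centred 22099 bp before the start and inside the nearer peak, had 32 and 160 fragments and a ratio of 2.69 (2.18 to 3.33). The one at Bach1, centred 45795 bp before the start, had 90 and 82 fragments, with a ratio of 0.28 (-0.18 to 0.72), an interval that spanned 0. The central 300 bp of the peaks upstream of Bach2 are printed on the strand of the gene from GRCm38.p6, which has the coordinates of mm10, because they carry the largest ratios. Capitals here and below mark the CNC motif GCTGAGTCA or GCTGACTCA, the antioxidant response element (ARE) TGACNNNGC or the AP-1 core TGANTCA, in either orientation. The nearer sequence has 32.7% G and C and none of these motifs, and the farther one has 1 AP-1 core.
Bach2 upstream 22 kb, chr4:32216508-32216807, plus strand: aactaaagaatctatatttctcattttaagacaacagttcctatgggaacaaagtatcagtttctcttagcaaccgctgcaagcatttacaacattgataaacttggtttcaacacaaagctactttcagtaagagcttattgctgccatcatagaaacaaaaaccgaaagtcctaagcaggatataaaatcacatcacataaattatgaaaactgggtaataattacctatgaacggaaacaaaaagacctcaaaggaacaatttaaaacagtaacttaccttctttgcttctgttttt
Bach2 upstream 48 kb, chr4:32190517-32190816, plus strand: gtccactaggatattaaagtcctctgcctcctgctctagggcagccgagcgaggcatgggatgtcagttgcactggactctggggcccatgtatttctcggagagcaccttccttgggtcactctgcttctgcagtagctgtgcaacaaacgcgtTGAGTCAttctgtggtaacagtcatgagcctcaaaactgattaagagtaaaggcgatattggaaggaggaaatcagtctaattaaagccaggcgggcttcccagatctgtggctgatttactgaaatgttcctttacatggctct

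Within the Bach2 gene the remaining 6 called bins were intronic and each was between 1.05 and 1.22 in log2 ratio, the highest being 276946 bp downstream of the start, where the libraries had 24 and 43 fragments. The peak of Bach2 with the most fragments among its introns, 149127 bp downstream, had 992 and 777 fragments and a ratio of 0.056 (-0.081 to 0.19). The lowest tested peak of the locus lay 120041 bp downstream of the start, with 169 and 78 fragments and a ratio of -0.70 (-1.11 to -0.31). The median of the 47 tested Bach2 peaks was 0.18, against 0.0046 for all tested peaks and -0.024 for the 207 peaks of the 10 genes together.

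**Figure D4:**
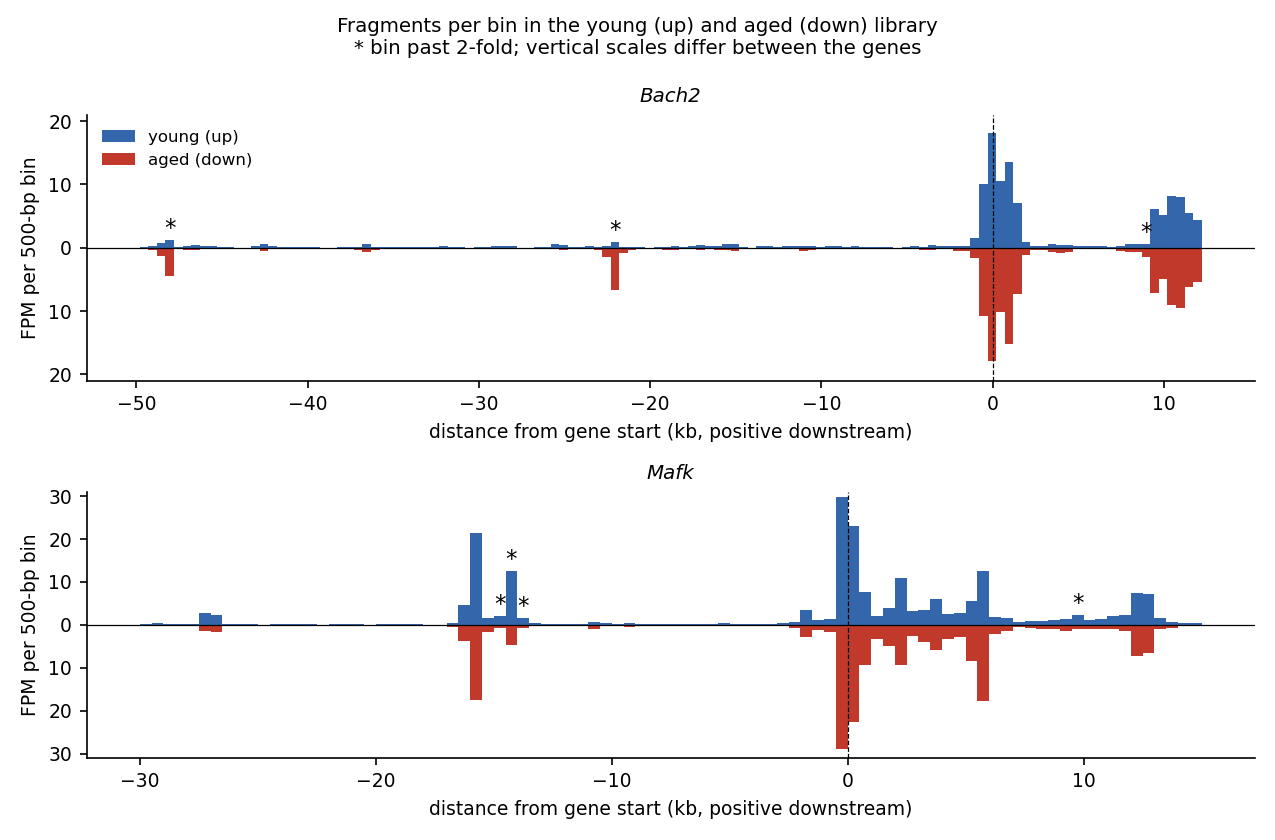
FPM in 500-bp bins in the young library (blue, upward) and the aged library (red, downward) against distance from the start of Bach2 (top) and Mafk (bottom), with asterisks on bins past 2-fold. The bins 22054 bp and 48054 bp upstream of Bach2 stand out in the aged library, at 6.64 and 4.52 FPM against 0.989 and 1.19, and the bin 14263 bp upstream of Mafk stands out in the young library, at 12.5 against 4.79 FPM.

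At Mafk the differences ran in both directions. A peak 14298 bp before the gene start went from 437 fragments in the young to 124 in the aged library, a log2 ratio of -1.40 (-1.71 to -1.12), and its ratio stayed between -1.52 and -1.17 under the same alternatives. It was seen in 3.18% of young and 1.44% of aged thinned cells. The peak is intergenic, and its nearest protein-coding start is that of Ints1, a subunit of the Integrator complex, so that its assignment to Mafk rests on distance to the gene alone. The neighbouring peak 15896 bp before the start, in an untranslated region of Ints1, had 776 and 480 fragments, with a ratio of -0.28 (-0.45 to -0.12). An intronic peak 5573 bp downstream of the Mafk start, inside the window of the second transcript start, went the other way, from 439 to 489 fragments, a ratio of 0.56 (0.38 to 0.75). The peak over the first start had 1617 and 1216 fragments and a ratio of -0.0026 (-0.11 to 0.11). The bins on either side of that of the upstream peak were also lower, with 71 and 21 fragments 14763 bp upstream and 57 and 19 fragments 13763 bp upstream. The remaining lower bins of Mafk lay 9737 bp downstream, with 78 and 26 fragments, and 40737 bp downstream, with 77 and 22. The central 300 bp of the peaks that differed most in each direction are shown for comparison. The upstream one has 60.7% G and C and none of the motifs, and the intronic one, with 60.3% G and C, has 1 ARE and 1 AP-1 core.
Mafk upstream 14 kb, chr5:139777066-139777365, plus strand: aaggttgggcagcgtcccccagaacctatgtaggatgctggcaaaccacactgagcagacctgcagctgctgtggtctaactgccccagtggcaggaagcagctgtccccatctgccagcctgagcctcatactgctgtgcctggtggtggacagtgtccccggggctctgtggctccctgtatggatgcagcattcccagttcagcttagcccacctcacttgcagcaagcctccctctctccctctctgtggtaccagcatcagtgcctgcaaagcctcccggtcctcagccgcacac
Mafk intron, chr5:139796937-139797236, plus strand: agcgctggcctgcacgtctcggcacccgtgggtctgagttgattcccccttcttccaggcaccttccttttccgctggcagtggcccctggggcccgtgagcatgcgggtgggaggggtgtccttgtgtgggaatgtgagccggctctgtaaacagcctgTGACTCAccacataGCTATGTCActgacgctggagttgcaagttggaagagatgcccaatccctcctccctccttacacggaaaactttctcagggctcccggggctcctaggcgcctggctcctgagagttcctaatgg

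At the other members single peaks of at least 100 fragments differed by less than those at Bach2 and Mafk. The third peak over 2-fold higher lay 61238 bp downstream of the Nfe2l2 start, with Hnrnpa3 as the nearest protein-coding start, on 39 and 63 fragments, and had a ratio of 1.09 (0.50 to 1.72), which was 0.85 and so within 2-fold in thinned cells. A peak 32695 bp upstream of Nfe2l2 went the other way, at -0.94 (-1.50 to -0.44) on 111 and 43 fragments. At Bach1 the largest ratio among these peaks was that of an intronic peak 27317 bp downstream of the start, with 181 and 71 fragments and a ratio of -0.93 (-1.36 to -0.54). At Nfe2 the largest ratio, 0.69 (0.34 to 1.03), belonged to an intergenic peak 41997 bp upstream with 131 and 159 fragments. At Nfe2l1 it was -0.81 (-1.41 to -0.27) at a peak 55143 bp downstream in an intron of Snx11, with 92 and 39 fragments. Maff had ratios in both directions, -0.75 (-1.27 to -0.28) on 115 and 51 fragments 62393 bp downstream and 0.71 (0.44 to 0.98) on 207 and 255 fragments 31345 bp downstream. The largest ratios at Keap1, -0.52 (-0.97 to -0.093), and Mafg, -0.48 (-0.88 to -0.11), were below 0, and that at Nfe2l3, 0.45 (-0.069 to 0.98), had an interval that spanned 0. Peaks under that minimum reached larger ratios, such as -2.18 on 41 and 6 fragments 27978 bp upstream of Nfe2l3 and -1.54 on 49 and 12 fragments 66001 bp downstream of the Bach1 start. Among called bins, the lowest ratio of all was at Nfe2l3, -1.85 (-3.29 to -0.88), on 42 and 8 fragments 27920 bp upstream, followed by Nfe2l1 at -1.56, 3282 bp upstream, and Bach1 at -1.52, 25805 bp downstream in an intron. Maff had a bin at 1.22 15129 bp downstream and one at -1.30 24129 bp downstream, both within Tmem184b. The remaining called bins named by size had ratios near 1, at 1.18 61391 bp downstream of the Nfe2l2 start with 40 and 69 fragments, at 1.08 45347 bp upstream of Nfe2 with 36 and 58, at 1.07 35580 bp downstream of the Nfe2l3 start with 37 and 59, and at -1.01 19611 bp downstream of the Keap1 start with 39 and 14.

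The peaks with the most fragments differed little between the ages, whether they lay at the gene or in its flank. At Nfe2l2 it was the peak just downstream of the start, with 3645 and 2760 fragments and a ratio of 0.0072 (-0.065 to 0.079), and at Nfe2l1 the peak 60 bp upstream, with 2946 and 2026 fragments and a ratio of -0.13 (-0.21 to -0.050). At Bach1 it was the promoter peak, with 1284 and 924 fragments and a ratio of -0.066 (-0.19 to 0.057), and at Maff the intronic peak by the inner start, with 2501 and 1731 fragments and a ratio of -0.12 (-0.21 to -0.034). In the loci of the others, apart from Mafk, it sat beside the start of a neighbouring gene. These were Cbx5 near Nfe2 with a ratio of -0.048, Cbx3 near Nfe2l3 with -0.17, Casp8ap2 near Bach2 with -0.064, Aspscr1 near Mafg with -0.054 and Kri1 near Keap1 with -0.082.

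Because CNC, Bach and Maf proteins bind elements that their own genes may carry, the central 300 bp of every peak was searched for the motifs. The CNC motif was found in 9 of the 284 peaks of the 10 genes (3.17%) and in 2.95% of all 161744 peaks. The ARE was found in 39 (13.7%) and in 14.3%, and the AP-1 core, added after the peaks had been seen, in 31 (10.9%) and in 12.2%. The motifs overlap, since GCTGAGTCA read on the other strand fits the ARE and both CNC forms hold the AP-1 core. Of the 9 peaks with a CNC motif, 7 had at least 100 fragments, with ratios from -0.056 to 0.70 and a median of 0.17, and none was past 2-fold. Over all 2657 tested peaks of the genome with this motif the median was 0.19, with 7.53% past 2-fold higher and 0.565% lower. Of all tested peaks, with or without a motif, 3.44% were higher and 0.841% lower. The 11065 tested peaks of the genome with the broader AP-1 core had a median of 0.12, with 6.88% higher and 0.642% lower. The 23 at the 10 genes had a median of 0.17, with 1 past 2-fold higher and 0 lower. The 32 tested peaks with an ARE had a median of -0.044, and the 14156 of the genome 0.030.

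The peaks with a CNC motif lay at Bach1, Bach2, Maff, Mafg and, with 21 and 8 fragments, downstream of Nfe2. The highest ratio among them, 0.70 (0.25 to 1.16), was at an intronic Bach2 peak 30292 bp downstream of the start, on 76 and 93 fragments. A second intronic Bach2 peak, 11183 bp downstream, had 264 and 224 fragments and a ratio of 0.17 (-0.092 to 0.43). At Bach1 the motif was in a small intronic peak 550 bp downstream, with 96 and 91 fragments and a ratio of 0.33 (-0.099 to 0.76), and in its larger neighbour 1163 bp downstream, with 919 and 666 fragments and a ratio of -0.056. At Mafg an intronic peak 3395 bp downstream had 293 and 265 fragments and a ratio of 0.26 (0.018 to 0.51). It lies wholly inside the window of the second transcript start, so the peak and that start share fragments and are not separate differences. A Mafg peak 769 bp downstream had 843 and 656 fragments and a ratio of 0.047. Another Bach2 peak with the motif, 331380 bp downstream, had 29 and 28 fragments. At Maff the motif stood in an intergenic peak 13055 bp upstream, with 157 and 133 fragments and a ratio of 0.17. The central 300 bp of 1 such peak each of Bach2, Bach1 and Mafg are printed on the gene's strand to show the motif in its setting. At Mafg the overlapping forms join to 1 longer match.
Bach2 intron, chr4:32268947-32269246, plus strand: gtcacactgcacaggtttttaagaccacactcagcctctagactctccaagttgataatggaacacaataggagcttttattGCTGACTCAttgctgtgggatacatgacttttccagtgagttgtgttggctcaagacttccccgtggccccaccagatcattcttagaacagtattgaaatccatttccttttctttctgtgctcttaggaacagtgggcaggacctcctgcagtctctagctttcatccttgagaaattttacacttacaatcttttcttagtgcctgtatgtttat
Bach1 intron, chr16:87699346-87699645, plus strand: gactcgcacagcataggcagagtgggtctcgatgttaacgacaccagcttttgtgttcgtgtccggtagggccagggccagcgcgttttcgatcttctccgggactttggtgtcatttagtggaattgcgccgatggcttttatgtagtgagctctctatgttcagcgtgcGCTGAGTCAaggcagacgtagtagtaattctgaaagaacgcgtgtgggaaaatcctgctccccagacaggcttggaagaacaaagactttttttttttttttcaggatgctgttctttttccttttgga
Mafg intron, chr11:120630056-120630355, minus strand: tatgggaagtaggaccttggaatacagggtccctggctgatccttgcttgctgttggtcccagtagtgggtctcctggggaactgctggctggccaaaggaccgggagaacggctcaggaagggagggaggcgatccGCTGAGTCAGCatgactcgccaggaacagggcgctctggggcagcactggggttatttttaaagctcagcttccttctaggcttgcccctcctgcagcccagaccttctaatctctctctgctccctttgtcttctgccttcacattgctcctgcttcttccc

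In the 300 bases around the annotated start, none of the 10 genes had a CNC motif or an AP-1 core, which 0.717% and 6.88% of 21750 promoters held, and 3 had an ARE, which 12.5% held. In the RefSeq promoter table of GRCm38.p6, which matched 9 of the 10 genes and holds several starts for Nfe2l1 and Maff and, for Bach2, only the start 178631 bp into the gene, an ARE was found at Nfe2l2, Mafk, Mafg and Maff, and these stretches with 10 bases on either side are given on the strand of the gene. The first base of the match lay 240 bp before the RefSeq start at Nfe2l2, 13 bp before it at Mafk, 222 bp before it at Mafg and 112 bp before it at Maff, and these promoters had log2 ratios of 0.016, 0.0080, 0.028 and -0.052. In G and C content the promoters ranged from 50.3% at Maff to 74.0% at Bach2, around a median of 55.0% over all promoters, with Mafk at 70.0%, Bach1 at 69.7% and Nfe2l2 at 68.0%, and with Keap1 at 51.3% also below the median.
Nfe2l2 promoter, chr2:75704885-75704913, minus strand: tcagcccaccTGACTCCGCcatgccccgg
Mafk promoter, chr5:139791513-139791541, plus strand: gatcccggaaGCGGTGTCAgtactgggga
Mafg promoter, chr11:120633751-120633779, minus strand: ctctgcaggaGCACGGTCAacccggcgag
Maff promoter, chr15:79346499-79346527, plus strand: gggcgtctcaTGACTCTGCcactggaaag

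The levels were spread over many cells in both libraries. With every cell reduced at random to 3000 in-peak fragments, 4782 young and 3267 aged cells remained. A promoter fragment of Nfe2l2 was found in 24.7% of young cells (23.5 to 26.0) and 25.5% of aged cells (24.0 to 27.0). Nfe2l1 was seen in 22.8% and 21.2% of cells and Nfe2 in 20.2% and 20.0%. Nfe2l3 was seen in 4.64% (4.06 to 5.28) of young and 5.72% (4.95 to 6.58) of aged cells, with intervals that overlapped. Bach1 was seen in 14.2% and 14.0%, Bach2 in 10.6% and 10.9%, Mafk in 13.8% and 14.0%, Maff in 9.49% and 9.34%, and Keap1 in 8.93% and 7.93%. Mafg had the widest gap of the small Maf genes, 11.5% (10.7 to 12.5) against 13.0% (11.9 to 14.2), and its intervals overlapped too. Of the 10 closed reference promoters, 9 were seen in at most 0.25% of young and 0.28% of aged cells and Gfap in 2.86% and 3.03%, below every member. A thinned cell had a fragment at 1.41 of the 10 promoters on average in young and 1.42 in aged HSCs, and 21.1% and 20.8% of cells had none. Without thinning, when aged cells were deeper (a median of 11020 unique fragments against 9890), the shares ran from 11.1% for Nfe2l3 to 46.9% for Nfe2l2 in young and from 13.1% to 48.8% in aged cells.

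**Figure D5:**
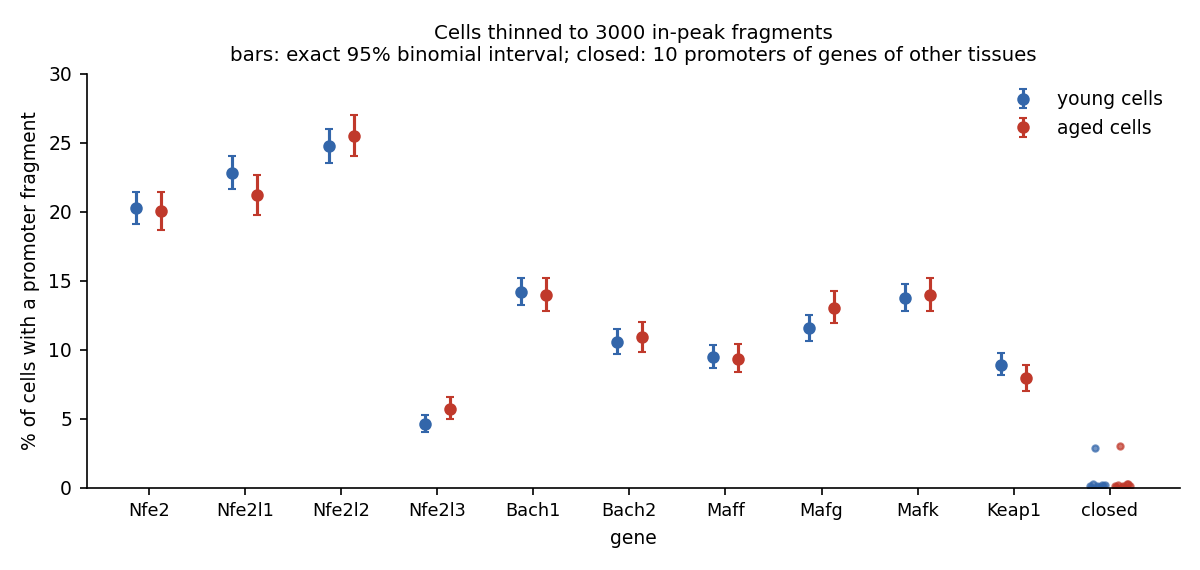
Share of cells with at least 1 promoter fragment after thinning to 3000 in-peak fragments, in percent, for the 10 genes and for 10 closed reference promoters, with exact 95% binomial intervals. The shares run from 4.64% for Nfe2l3 to 25.5% for Nfe2l2, and the young and aged intervals overlap for every member.

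The wider pathway was followed through lists of genes, beside all tested promoters, of which 9.56% were past 0.32 higher and 3.93% lower. Of 13 regulators of CNC proteins, none was past 0.32 and 11 had a ratio below 0, with a median of -0.15. The lowest was Sqstm1, which encodes the autophagy receptor p62 that binds Keap1, with 50.5 FPM in young against 42.0 FPM in aged HSCs and a ratio of -0.26 (-0.38 to -0.15), and the highest was Hmox1, the heme oxygenase whose gene Bach1 represses, at 0.057 (-0.096 to 0.21). Of 31 proteasome genes, targets of Nrf1, 27 were below 0, the median was -0.12, none was past 0.32 lower and 1 was past it higher. The lowest was Psmb6, a catalytic subunit, with 40.1 and 33.6 FPM and a ratio of -0.26 (-0.38 to -0.13), and the highest was Psma6, at 0.97 on 22 and 33 fragments. These medians stood beside -0.051 for all promoters, of which 63.8% were below 0.

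Of the 26 tested Nrf2 targets 13 were below 0 and 1 was past 0.32, with a median of -0.0077 and a summed ratio of -0.032 (-0.056 to -0.0078) over the list. That gene was Fth1, the ferritin heavy chain, whose annotated window was nearly closed with 41 and 42 fragments, and the lowest was again Sqstm1. Of 12 tested platelet genes linked to NF-E2, 2 were past 0.32 higher and 1 lower, with a median of -0.054 and a summed ratio of -0.012 (-0.061 to 0.036). Selp, the adhesion receptor P-selectin, went from 7.19 to 13.4 FPM, a ratio of 0.90 (0.66 to 1.14), and Casp12 from 8.06 to 14.2 FPM, a ratio of 0.81 (0.59 to 1.04). Itga2b, the platelet integrin subunit, went from 31.1 to 24.3 FPM, a ratio of -0.35 (-0.50 to -0.21), and it is also on the megakaryocyte list, whose summed ratio was -0.17 (-0.23 to -0.10). Of the large Maf genes, which share the Maf DNA-binding domain and carry an activation domain, Mafa at -0.20 (-0.31 to -0.088) was the lowest of 3 tested, and none was past 0.32.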

How the data were processed

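Single-cell ATAC-seq was analysed for 1 young and 1 aged library of sorted bone marrow HSCs. The authors processed the reads with Cell Ranger ATAC and deposited, per fragment, its position on mm10, its barcode and its read pair count, together with a barcode table of counts and of a flag for called cells, and Signac is also named in the notes of the submitters. Called cells with 3000 to 20000 in-peak fragments were kept, with no doublet caller, and the deepest 10% of cells were left out as an alternative. Peaks were called anew on cut sites of each library in 150-bp windows (Poisson p of 1e-05 against the larger of the genome and 10-kb mean), joined over gaps of 50 bp, kept from 100 bp, and merged between libraries. Levels were scaled to 1000000 fragments in these peaks (34371393 young, 25899511 aged). A pseudocount of 1 fragment was added before log2 ratios were taken. Intervals are exact 95% Poisson intervals for levels and exact binomial (Clopper-Pearson) intervals for ratios and shares, and PCR copies were already merged into unique fragments. Promoters and bodies needed 50 fragments, bins 50 and peaks 100, over both libraries. Genes were those of GENCODE M21, and sequences came from RefSeq GRCm38.p6. Python 3.11.15, numpy 2.4.6, scipy 1.17.1, pandas 2.3.3 and matplotlib 3.10.9 were used, and counting was tested on simulated data. Every member is named, with its peak of most fragments, its tested peak of the largest ratio and its called bin of the largest ratio in each direction, and in each pathway list the highest and lowest gene, save where a gene is not reported here. The genes and lists were chosen with earlier results of these data known, and the AP-1 core was added after peak values were seen.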

Additional observations from a re-analysis of the deposited data

How the results depend on the processing

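No paired analysis was possible because each age had 1 library. No alternative turned the direction of a called peak, and the number of members past 0.32 at the promoter stayed at 0 under all alternatives run. Higher and lower bins, 15 and 12 of 749 as reported, numbered 6 and 6 of 407 with fragments shorter than 150 bp (3.0% and 1.58% of all bins near genes), 8 and 2 of 417 in thinned cells (2.47% and 0.766%), 55 and 36 of 1408 at a minimum of 20 fragments (5.91% and 3.05%), 5 and 2 of 474 at a minimum of 100 (2.24% and 0.531%), and 77 and 36 of 749 past 1.5-fold (12.3% and 5.01%). Without the deepest 10% of cells 7 of 654 bins were lower (1.03% of all). The alternatives gave counts of bins, not the ratio of each. Higher peaks, 3 as reported, numbered 0 in thinned cells, where fewer fragments are left to reach the minimum and the ratio of the Nfe2l2 peak was 0.85. Lower peaks, 1 as reported, numbered 2 without the deepest 10% of cells and 3 with short fragments, and for these the cause was not tested. Promoter ratios moved outside their own interval for Maff with 500 bp on either side of the start (0.15, the other direction) and for Mafg in thinned cells (0.18). Shares of cells with a fragment rise with depth by construction. With 1 library per age, age cannot be told apart from the mice, the sort and the preparation of each library, and intervals do not cover these.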
